A study of Solanum chacoense with 24 samples.

Results

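Reads of 83 potato genes were found in leaf libraries of the Solanum chacoense genotype EE501F2_093 and were all but missing from those of the genotype USDA8380-1. The genes were picked by level: a mean of at least 2 CPM (a gene's read count divided by all counts on genes of its library, times 1000000) over the 12 libraries of EE501F2_093, and a mean of at most 0.1 CPM over 10 of the 12 libraries of USDA8380-1. They are 83 of 32917 gene identifiers, and 83 of the 17371 identifiers with at least 2 CPM in EE501F2_093 (0.478%). The contrast between the genotypes is thus how the genes were chosen, and it is described below without a test. The same thresholds with the genotypes exchanged are met by 52 genes.

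Solanum chacoense is a wild relative of the cultivated potato. Some of its accessions, USDA8380-1 among them, are known for leptines, acetylated glycoalkaloids in the leaf that deter the Colorado potato beetle. Potato and its relatives are also known for gene content that varies between lines, so that a gene present in one plant can be missing or disrupted in another. A read count of 0 cannot tell apart a missing gene, a silent gene, and a gene whose sequence differs so much from the reference that its reads do not map to it.

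The samples were pools of leaf tissue from plants 15 weeks old, in 12 groups of 2 libraries: EE501F2_093 and USDA8380-1, each in cages given adult Colorado potato beetles and in a beetle-free control cage, at 0, 24 and 48 h. In both arms the 0 h harvest came before beetles were placed in the cages of the beetle arm. There were 6 plants per genotype and 2 plants per cage, per the labels' protocols, so that 2 cages were given 50 beetles and 1 was the control. The labels do not assign plants or cages to libraries. A beetle effect and a difference between cages therefore cannot be told apart within a genotype, the harvests share plants, and p-values measure the spread between pools only.

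Counts on genes lay between 25050119 and 50952957 per EE501F2_093 library and between 27859692 and 51999317 in the 10 USDA8380-1 libraries of the rule. The rule leaves out a pair of USDA8380-1 libraries. Beetle 0 h replicate 3 was shallow, with 2114184 counts and 17.3% of its reads outside genes, and control 24 h replicate 2 stood apart in expression. No source used here pairs the identifiers with gene names or products, so 0 of the 83 have a name, and nothing is said of what they encode. The leaf identity of the libraries could not be checked against marker genes for the same reason. The 2 digits after DM in an identifier are read as the chromosome, and the number after G as the order along it. How reads of near-identical gene copies were assigned is not known here, and single genes are uncertain to that extent.

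Over the 83 genes together, EE501F2_093 libraries had 558 ± 46.3 CPM (SD, n = 12), against 2.27 ± 0.980 CPM (SD, n = 10) in USDA8380-1. The lowest, median and highest EE501F2_093 library had 488, 565 and 629 CPM, and the USDA8380-1 libraries spread from 0.979 to 4.13 CPM around a median of 2.09. In counts, an EE501F2_093 library held 14302 to 28483 reads of these genes and a USDA8380-1 library 30 to 117. Between 81 and 83 of the genes had a count in a given EE501F2_093 library, while 16 to 38 had one in a given USDA8380-1 library. For 72 genes the lowest EE501F2_093 library lay above the highest of the 10 USDA8380-1 libraries. The other 11 had at least 1 EE501F2_093 library at or below the highest USDA8380-1 value.

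**Figure D1:**
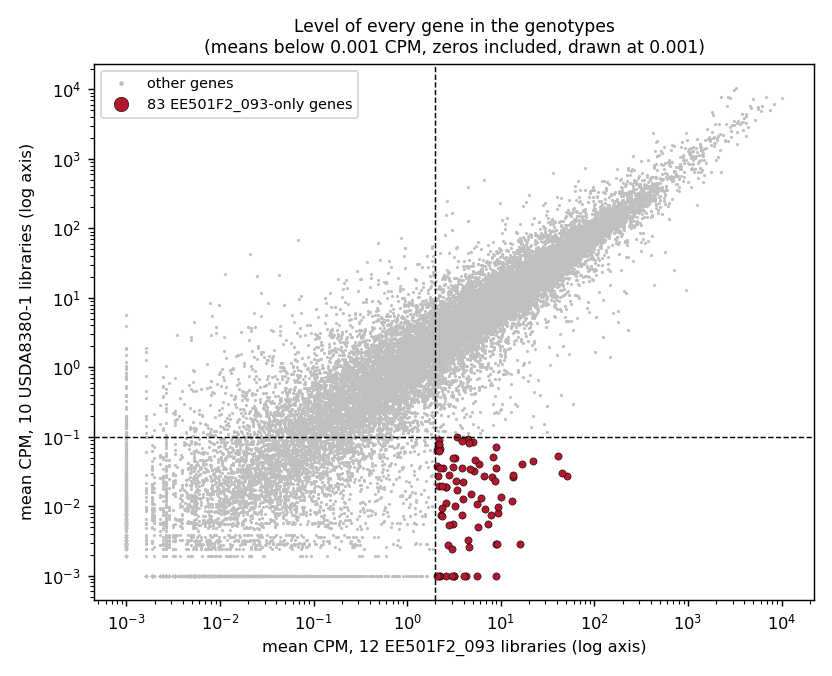
Mean CPM of every gene in the 12 EE501F2_093 libraries (x axis, log scale) against the 10 USDA8380-1 libraries of the rule (y axis, log scale), with the 83 chosen genes in red and the thresholds of 2 and 0.1 CPM dashed. The chosen genes reach 50.7 CPM in EE501F2_093, and 11 of them lie at 0 in USDA8380-1, drawn at 0.001.

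Most of the 83 were genes of low level. Their mean in EE501F2_093 ranged from 2.10 to 50.7 CPM with a median of 3.99 and quartiles of 2.60 and 7.56. Of them, 51 lay below 5 CPM, 22 between 5 and 10 CPM, and 10 at 10 CPM or more. The 3 highest genes made up 24.5% of the summed CPM and the 10 highest 43.4%. CPM are not per length, so these shares compare reads and not transcript numbers. Genes just inside the EE501F2_093 threshold were Soltu.DM.03G028450.1 and Soltu.DM.01G034490.1, both at 2.10 CPM, and those just outside were Soltu.DM.09G017570.1 at 1.98 CPM and Soltu.DM.11G000370.2 at 1.94 CPM. At the USDA8380-1 threshold, Soltu.DM.06G019340.1 at 0.0985 CPM and Soltu.DM.02G018680.1 at 0.0936 CPM lay inside. Just outside it were Soltu.DM.03G005560.1 and Soltu.DM.01G025770.1, both at 0.103 CPM.

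The highest gene was Soltu.DM.08G006330.1 on chromosome 8, with a lowest, median and highest EE501F2_093 library of 31.4, 49.2 and 72.0 CPM. The 10 USDA8380-1 libraries held 9 counts of it in all and at most 0.0718 CPM. Its pooled ratio of EE501F2_093 over USDA8380-1 was 2047 (exact 95% Poisson interval 1078 to 4477). No library of the rule came near the other genotype. Such intervals cover counting error only.

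Soltu.DM.10G006240.1 on chromosome 10 had 28.0, 41.8 and 63.2 CPM in its lowest, median and highest EE501F2_093 library, against 10 counts over the 10 USDA8380-1 libraries, 6 of them in beetle 0 h replicate 2. Soltu.DM.09G018520.1 on chromosome 9 had 32.9, 41.5 and 50.8 CPM in EE501F2_093, against 20 counts in USDA8380-1. Soltu.DM.02G004710.1 on chromosome 2 had 18.1, 21.4 and 30.7 CPM in EE501F2_093, against 15 counts in USDA8380-1. Both of the last differed little among EE501F2_093 libraries, with coefficients of variation (SD over mean) of 0.124 and 0.147.

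The other 6 of the 10 highest had means between 10.2 and 16.8 CPM in EE501F2_093. They were Soltu.DM.12G011220.1 at 16.8 ± 8.46, Soltu.DM.12G016430.1 at 15.9 ± 2.50, Soltu.DM.09G014220.5 at 13.5 ± 1.17, Soltu.DM.02G011440.1 at 13.5 ± 7.34, Soltu.DM.04G015340.1 at 13.3 ± 2.0 and Soltu.DM.12G014430.1 at 10.2 ± 3.20 CPM (SD, n = 12 each). Soltu.DM.12G016430.1 had the widest gap of the genes with a count in USDA8380-1: 1 count over the 10 libraries, a ratio of 5676 with an interval of 1018 to 224240. Soltu.DM.09G014220.5 had the smallest coefficient of variation of the 83 genes, 0.0869, with every EE501F2_093 library between 11.4 and 14.8 CPM.

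Of the 83 genes, 11 had no count in any of the 10 USDA8380-1 libraries, 19 had 1 to 3 counts over all 10, and 53 had more, with a median of 7 counts over the 83. Against a floor of 3 counts over the USDA8380-1 group, the 11 without a count were at least 252-fold to at least 1063-fold higher in EE501F2_093. The gene at the upper end, named after its value was seen, was Soltu.DM.12G014910.1 on chromosome 12. It had 8.86 ± 1.37 CPM in EE501F2_093 (SD, n = 12), with all of these libraries between 7.08 and 10.5 CPM. Ratios of the 72 genes with a count ranged from 24.4 to 5676 with a median of 248. The highest value of any gene in any of the 10 USDA8380-1 libraries was 0.745 CPM, from 25 counts of Soltu.DM.02G012190.1 in beetle 48 h replicate 1.

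The left-out libraries give the same measure in samples the rule did not use. In the shallow library, USDA8380-1 beetle 0 h replicate 3, the genes summed to 65.3 CPM (138 counts, exact 95% Poisson interval 54.8 to 77.1). That is 11.7% (9.82 to 13.8) of their EE501F2_093 mean, whereas the 10 libraries of the rule held 0.175 to 0.739%. The number of counts, 138, was only a little above the 30 to 117 of the deeper libraries, and the depth of 2114184 was far below theirs. At the EE501F2_093 level, 1180 counts would have been reached at that depth. A count was found for 56 of the 83 genes, and across the 83 genes, which are not independent replicates, the levels there correlated with the EE501F2_093 means at a Spearman rho of 0.463. For the means of the 10 libraries of the rule, rho was -0.03. The rule held those means at or below 0.1 CPM, so this value is no baseline for the shallow library. The highest there were Soltu.DM.10G006240.1 at 6.15 CPM (13 counts) and Soltu.DM.09G018520.1 at 4.73 CPM (10 counts), followed by Soltu.DM.08G006330.1 and Soltu.DM.10G017460.1 at 3.31 CPM (7 counts each). The 52 genes that met the exchanged thresholds summed to 294 CPM in the shallow library. They had 275 to 616 CPM in the 10 libraries of the rule and 1.06 to 4.63 CPM in EE501F2_093 libraries. Where the reads of the 83 genes in the shallow library came from was not tested.

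The library that stood apart, USDA8380-1 control 24 h replicate 2, had 3.25 CPM of the 83 genes (92 counts, interval 2.62 to 3.99), inside the range of the 10 libraries of the rule. Of its 92 counts, 24 were of Soltu.DM.02G012190.1, at 0.848 CPM, and Soltu.DM.08G006330.1, Soltu.DM.10G006240.1 and Soltu.DM.06G030250.2 followed at 0.177 CPM (5 counts each).

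**Figure D2:**
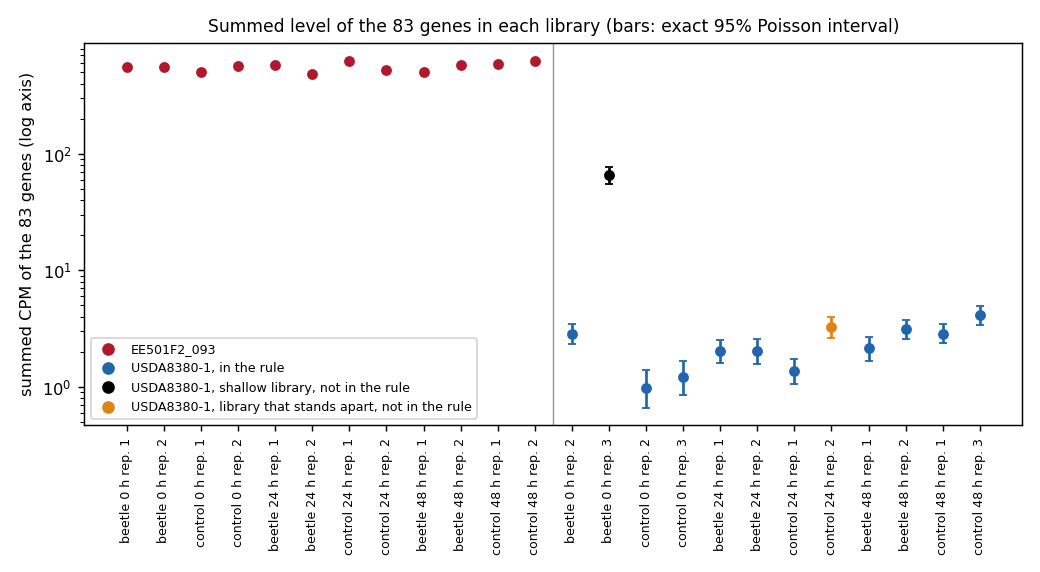
Summed CPM of the 83 genes in each of the 24 libraries (log y axis), EE501F2_093 in red, USDA8380-1 in blue, black and orange, with exact 95% Poisson intervals as bars. EE501F2_093 libraries lie between 488 and 629 CPM, and the shallow USDA8380-1 library, at 65.3 CPM, lies between the genotypes.

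The genes were spread over all 12 chromosomes, unevenly. Chromosome 8 carried 13 of them (1.02% of its 1279 genes with at least 2 CPM in EE501F2_093), chromosomes 1 and 4 carried 11 each (0.493% and 0.721%), chromosome 10 carried 10 (0.853%), and chromosomes 9 and 12 carried 9 each (0.706% and 0.754%). Chromosomes 3, 2, 7 and 6 carried 6, 5, 4 and 3. Chromosomes 5 and 11 carried 1 each, 0.0860% and 0.0846% of their expressed genes. No gene of the 83 was on unplaced sequence.

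On some chromosomes the genes lay close together in identifier order. The densest stretch of 300 consecutive identifiers on chromosome 8, 12.2% of the identifiers there, held 8 of its 13 genes, from Soltu.DM.08G004780.1 to Soltu.DM.08G008810.3. On chromosome 12 such a stretch, 12.6% of the identifiers, held 7 of 9 genes, from Soltu.DM.12G011210.1 to Soltu.DM.12G016430.1. On chromosome 9 it held 6 of 9, from Soltu.DM.09G014220.5 to Soltu.DM.09G018520.1, and on chromosome 10 it held 4 of 10. Among genes with at least 2 CPM in EE501F2_093, the 83 made up 5.84% in the stretch on chromosome 8, 5.51% on 12 and 4% on 9, against 0.478% over the genome. On chromosome 1, by contrast, no stretch held more than 3 of its 11 genes, and on chromosome 4 none held more than 2 of 11. The stretches were placed where the genes are densest, after the positions were seen, so these shares are a description.

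Immediate neighbours were found 5 times: 10 of the 83 genes stood in 5 adjacent pairs, and allowing up to 2 identifiers in between gave the same 5. Of the identifiers next to one of the 83, 85 had at least 2 CPM in EE501F2_093. Of these, 10 were themselves among the 83 (11.8%), against 0.478% of all such genes. Adjacent genes are counted from both sides in this share. The 10 are thus 5 pairs and not independent, and no interval is given.

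The pair with the highest level was Soltu.DM.08G006330.1 and Soltu.DM.08G006340.1, with EE501F2_093 means of 50.7 and 4.06 CPM and USDA8380-1 means of 0.0277 and 0 CPM. On either side of the pair, genes were read in both genotypes: Soltu.DM.08G006300.1 at 1.5 CPM in EE501F2_093 and 0.895 CPM in USDA8380-1, and, the third identifier beyond, Soltu.DM.08G006370.2 at 82.9 CPM in EE501F2_093 and 74.3 CPM in USDA8380-1. The gap between the genotypes there ended within a few identifiers. Further along, Soltu.DM.08G006410.1 was again among the 83, at 8.96 CPM in EE501F2_093 and 0.00283 CPM in USDA8380-1.

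Soltu.DM.12G011210.1 and Soltu.DM.12G011220.1, at 2.14 and 16.8 CPM in EE501F2_093 and 0.0275 and 0.0410 CPM in USDA8380-1, were flanked by genes with smaller gaps of the same direction. The next identifiers before them, Soltu.DM.12G011190.1 and Soltu.DM.12G011200.1, had 8.57 and 1.88 CPM in EE501F2_093, against 0.220 and 0.199 CPM in USDA8380-1. The one after them, Soltu.DM.12G011230.1, had 11.1 CPM in EE501F2_093, against 1.43 CPM in USDA8380-1. The second one after them, Soltu.DM.12G011240.1, went the other way, with 11.6 CPM in EE501F2_093, against 48.6 CPM in USDA8380-1.

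Soltu.DM.08G013790.1 and Soltu.DM.08G013800.1, at 2.83 and 7.26 CPM in EE501F2_093, had 2 counts each over the 10 USDA8380-1 libraries. Their neighbour Soltu.DM.08G013810.1 had 399 CPM in EE501F2_093 and 42.0 CPM in USDA8380-1, 9.52 times as much in EE501F2_093, and the identifier after it, Soltu.DM.08G013820.1, had 10.6 CPM in EE501F2_093 and 7.57 CPM in USDA8380-1. The other pairs were Soltu.DM.04G037310.1 with Soltu.DM.04G037320.1 and Soltu.DM.06G030250.2 with Soltu.DM.06G030260.1. Across the 12 EE501F2_093 libraries, the members of the 5 pairs correlated at r between 0.506 and 0.962 on log2(CPM + 0.5), the highest for the pair on chromosome 4. Adjacent genes share libraries, and reads of near-identical copies could be split between them.

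Apart from the 83, nearby genes with at least 2 CPM in EE501F2_093 were mostly less than 4-fold higher there. Among the 3 nearest identifiers on each side, flanks of the pairs included, there were 235 such genes. Of these, 16 (6.81%) were at least 4-fold higher in EE501F2_093. Over all genes with at least 2 CPM the share was 2.82%, a base that includes the 83. Of the 85 immediate neighbours at that level, 20 (23.5%) were at least 4-fold higher, and the 20 include the 10 that are among the 83. In the other direction, 8 of 231 neighbours with at least 2 CPM in USDA8380-1 (3.46%) were at least 4-fold higher there, against 3.86% of all such genes. None of the 52 genes that met the exchanged thresholds was among the 469 nearest identifiers. Identifiers below 0.1 CPM in both genotypes were as frequent near the 83 genes (23.3%) as over the genome (22.9%).

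Within EE501F2_093, most of the 83 genes were read in every library. All 12 libraries had at least 1 CPM for 57 genes and at least 2 CPM for 37. The highest library had at most 3 times the lowest for 40 genes, and at least 8 times the lowest for 26. The lowest library was below 0.5 CPM for 20 genes, 4 of which had no count in some EE501F2_093 library. The median coefficient of variation was 0.315 for the 83 genes and 0.226 for all genes with at least 2 CPM. Among all genes, too, the coefficient was larger at low level. In bands of level, the medians for the 83 and for all genes were 0.358 and 0.322 from 2 to 5 CPM, 0.279 and 0.241 from 5 to 10 CPM, and 0.194 and 0.205 above 10 CPM.

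**Figure D3:**
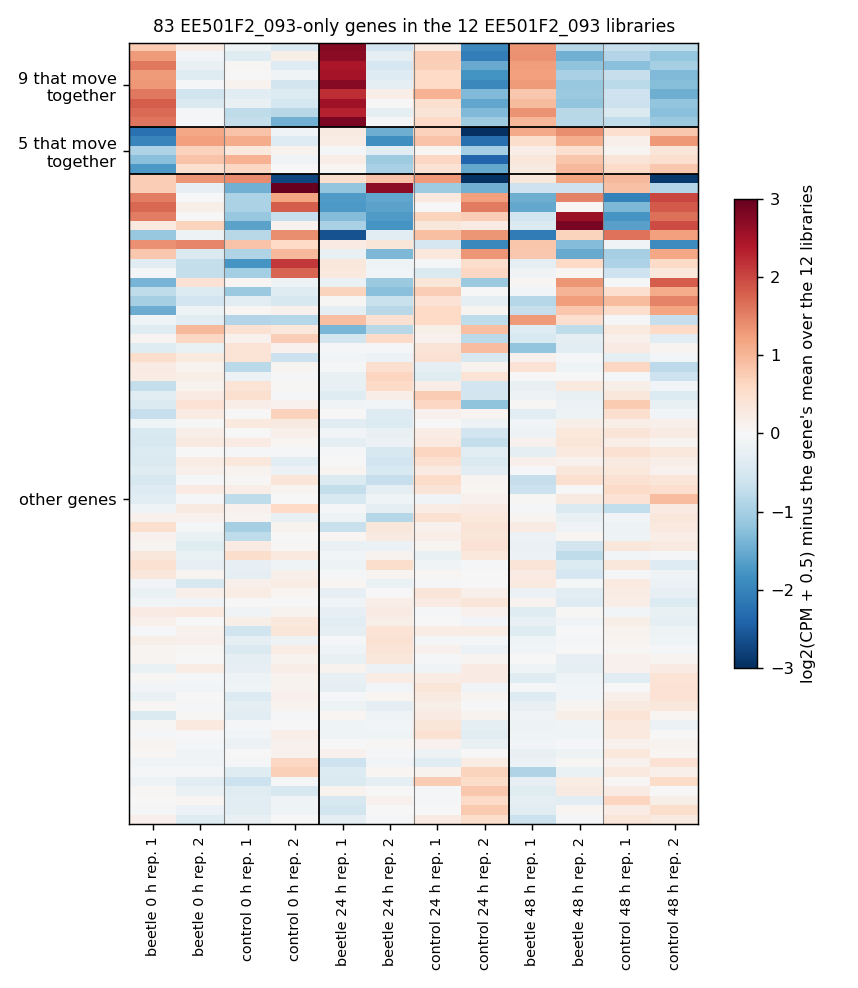
Level of each of the 83 genes (rows) in the 12 EE501F2_093 libraries (columns, beetle left of control at each hour), as log2(CPM + 0.5) minus the gene's mean over the 12 libraries. The 9 genes at the top are highest in beetle 24 h replicate 1, and 40 of the 83 genes differ at most 3-fold between their lowest and highest library.

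A set of 9 genes on 5 chromosomes varied together. It was found after the values were seen, as genes linked at r of at least 0.95 over the 12 EE501F2_093 libraries (pairwise r 0.870 to 0.990 on log2(CPM + 0.5), and 0.794 to 0.983 without beetle 24 h replicate 1, a check added after the values were seen). The genes are Soltu.DM.01G000870.1, Soltu.DM.01G021400.1, Soltu.DM.01G025480.1, Soltu.DM.08G002330.1, Soltu.DM.09G002890.1, Soltu.DM.09G023190.1, Soltu.DM.10G002800.1, Soltu.DM.10G017530.1 and Soltu.DM.11G003770.1. Their summed level at 0 h was 56.9 and 15.6 CPM in the beetle arm and 14.8 and 12.3 CPM in the control arm (replicates 1 and 2). At 24 h it was 130 and 14.6 CPM with beetles and 29.9 and 2.89 CPM in the control arm, and at 48 h 46.9 and 6.18 CPM with beetles and 8.70 and 5.67 CPM in the control arm. Replicate 1 of the beetle arm was high at all 3 harvests, the one before the beetles included. Replicate 2 of the beetle arm stayed within the range of the control libraries of all hours, 2.89 to 29.9 CPM. At 0 h, with 15.6 CPM, it lay slightly above both control libraries of that hour. Each of the 9 genes was highest in beetle 24 h replicate 1, where Soltu.DM.10G017530.1 reached 19.1 CPM, against 0.275 to 6.77 CPM in the other 11 libraries.

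Among the 19362 genes with at least 1 CPM in EE501F2_093, 18 further genes on 8 chromosomes followed the mean of the 9 at r of at least 0.95. None of them is among the 83. They had 1.01 to 2.42 CPM in EE501F2_093, and all 18 had at most 0.122 CPM in USDA8380-1, whereas 1.21% of the genes screened had at most 0.2 CPM there. In USDA8380-1, the 9 genes had 49 counts in control 48 h replicate 3 (1.76 CPM), against at most 11 counts (0.328 CPM) in each of the other 9 libraries of the rule.

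A second set, also found after the values were seen, held 5 genes: Soltu.DM.02G018680.1, Soltu.DM.04G037310.1, Soltu.DM.04G037320.1, Soltu.DM.07G006140.1 and Soltu.DM.08G006410.1 (pairwise r 0.926 to 0.972). Their summed level at 0 h was 6.71 and 40.9 CPM in the beetle arm and 37.0 and 20.9 CPM in the control arm. At 24 h it was 23.4 and 10.9 CPM with beetles and 30.3 and 5.17 CPM in the control arm, and at 48 h 31.1 and 42.0 CPM with beetles and 27.3 and 35.9 CPM in the control arm. Low values occurred in both arms, and the arms overlapped at 0, 24 and 48 h. This set differed from the set of 9 in its followers: 315 other genes tracked its mean at r of at least 0.95, and 310 of them had more than 1 CPM in USDA8380-1, with a median of 11 CPM over the 315.

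Soltu.DM.04G028860.4, also singled out after its values were seen, was on in 1 control library and near 0 in the other at each harvest. Control replicate 1 had 9.91, 9.05 and 7.15 CPM at 0, 24 and 48 h. Control replicate 2 had 0.0798, 0 and 0.0224 CPM, or 2, 0 and 1 counts. All 6 beetle-arm libraries had it, between 4.48 and 9.31 CPM. It was the only gene in the table with at least 2 CPM in control replicate 1 and at most 0.2 CPM in control replicate 2 at all 3 harvests, and 1 gene, not among the 83, showed the reverse. The labels do not say whether a replicate number follows the same plants. Its neighbours Soltu.DM.04G028850.3 and Soltu.DM.04G028870.1 were read in both genotypes, at 115 and 4.06 CPM in EE501F2_093 and 103 and 4.13 CPM in USDA8380-1. Soltu.DM.02G012190.1 had the largest coefficient of variation of the 83 genes, 1.80, with 12.3 CPM in control 0 h replicate 2, 8.25 CPM in beetle 24 h replicate 2 and at most 1.99 CPM in the other 10 EE501F2_093 libraries.

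**Figure D4:**
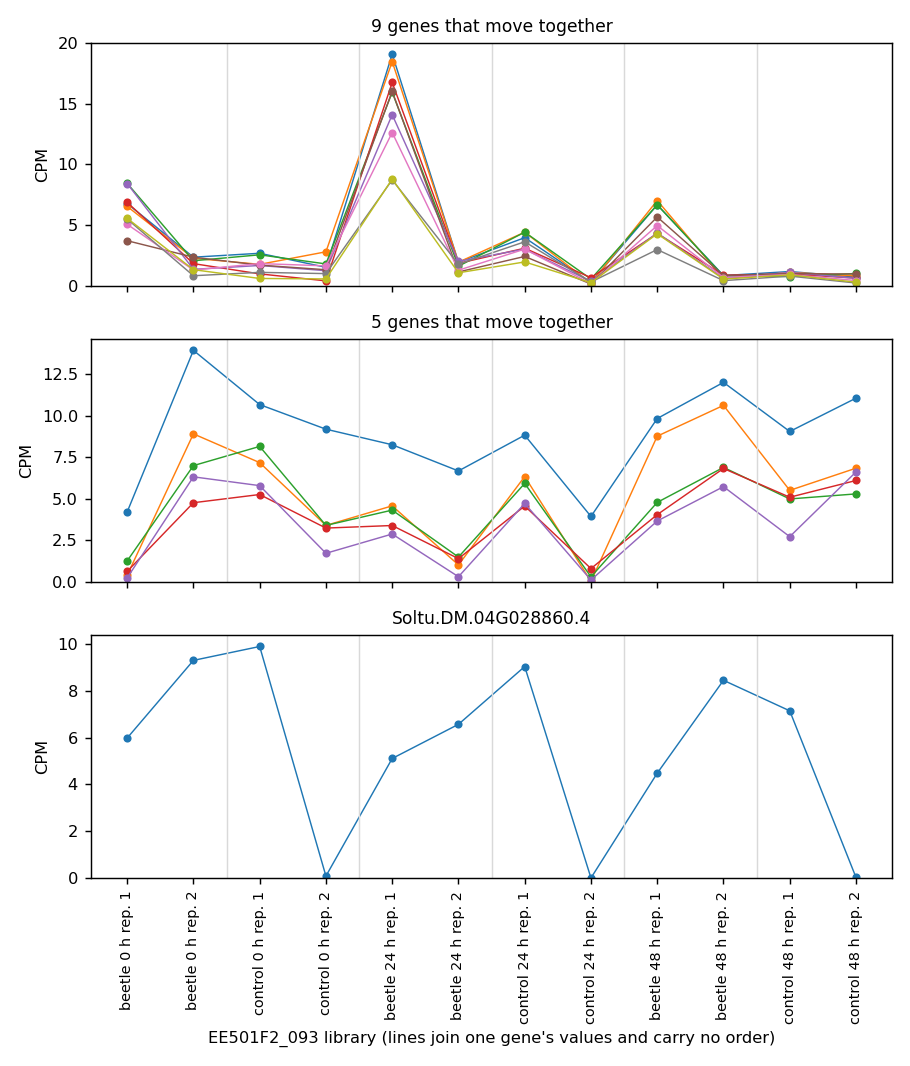
CPM in the 12 EE501F2_093 libraries of the set of 9 genes, the set of 5 genes and Soltu.DM.04G028860.4 (top to bottom, each line a gene, beetle left of control at each hour). The set of 9 peaks in beetle 24 h replicate 1, and Soltu.DM.04G028860.4 is near 0 in control replicate 2 at 0, 24 and 48 h.

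The response to the beetles was tested within EE501F2_093. The rule used the mean over its 12 libraries, those of the beetle arm included, and not the contrasts between them. A gene high in 1 library could still pass through that library. Without beetle 24 h replicate 1, 4 of the 83 no longer met the rule, all from the set of 9. Each other EE501F2_093 library left out lost at most 3. The contrasts of such genes, and counts over the 83 that include them, are not free of the choice. All 83 passed the filter on low counts, among 23558 genes tested with edgeR's quasi-likelihood test. None of the 83 was called at an adjusted p under 0.05 in any beetle or time comparison, so none can be said to have changed. The background was as sparse. At 24 h 0 of the 23558 genes (0%) were called, at 48 h 1 (0.00424%), before the beetles 0 (0%), and over 24 and 48 h together 1 (0.00424%). At an unadjusted p under 0.05, 7 of the 83 genes passed at 24 h (background 5.37%), 3 at 48 h (6.23%), 0 at 0 h (2.08%), and 19 over both hours (11.7%). Those 19 are 22.9% of the 83, with 14 lower (background 5.34%) and 5 higher (background 6.37%) in the beetle arm. That share rests on single libraries. It was 7.23% without beetle 48 h replicate 1, against 7.58% of all genes, and 8.43% without control 24 h replicate 2, against 8.63% of all genes. Without control 48 h replicate 2 it was 10.8%, against 13.1% of all genes. Leaving out the other libraries in turn gave 10 to 26 of the 83. DESeq2 called 44, 111 and 5 genes at 24, 48 and 0 h, none of them among the 83, and 512 genes over both hours, 2 of them among the 83.

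Summed over the 83 genes, beetle libraries at 24 h had 530 ± 59.5 CPM and control libraries 574 ± 72.4 CPM (SD, n = 2 each). At 48 h beetle libraries had 540 ± 54.4 CPM and control libraries 610 ± 27.4 CPM. Before the beetles, the arm that was to receive them had 557 ± 3.33 CPM and the control arm 538 ± 46.8 CPM. The arms overlapped at 0 and 24 h, and at 48 h both beetle libraries lay below both control libraries.

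Gene by gene, values in the beetle arm lay below the control more often than above it. The fitted log2 fold change of beetle over control was negative for 60 of the 83 genes at 24 h and for 53 at 48 h, with medians of -0.23 and -0.17, while the medians of all genes tested were 0.01 and 0.02. The 48 h value was smaller without control 48 h replicate 1, with 44 genes negative and a median of -0.07, against 0.05 for all genes. The median at 24 h lay between -0.32 and -0.20 with any 1 library left out. At 0 h it was negative for 43, with a median of -0.01, against -0.03 for all genes. Both beetle libraries lay below both control libraries for 26 genes at 24 h (31.3%, background 12.1%) and for 23 at 48 h (27.7%, background 18.2%). They lay above for 1 gene at 24 h (background 16.4%) and for 4 at 48 h (background 15.8%). Before the beetles, 9 lay below (background 12.6%) and 15 above (background 19.3%). Over 24 and 48 h together, all 4 beetle libraries lay below all 4 control libraries for 8 genes (9.64%, background 2.98%) and above for 0 (background 3.22%). Without the set of 9, whose highest values in the beetle arm were in replicate 1, the pooled log2 fold change was negative for 57 of 74 genes with a median of -0.26. The cause of the shift was not tested. The beetle and control arms stood in different cages.

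**Figure D5:**
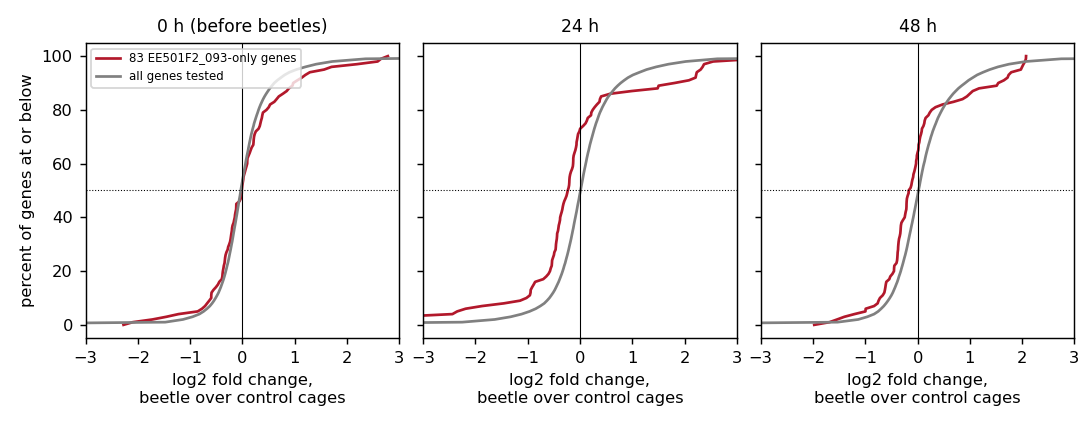
Cumulative percent of genes (y axis) at or below each log2 fold change of beetle over control cages (x axis) in EE501F2_093 at 0, 24 and 48 h, for the 83 genes (red) and all 23558 genes tested (grey). The red curve lies left of the grey one around its middle at 24 and 48 h, with medians of -0.23 and -0.17, and close to it at 0 h.

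The 8 genes lower in all 4 beetle libraries include the highest of the 83, Soltu.DM.08G006330.1. Beetle libraries had 40.2 and 48.1 CPM of it at 24 h and 31.4 and 48.2 CPM at 48 h, against 58.4 and 72.0 CPM and 63.8 and 60.0 CPM in control libraries. At 0 h the arm to receive beetles had 55.1 and 38.5 CPM and the control arm 42.4 and 50.2 CPM, with overlap. Its pooled log2 fold change was -0.62 (edgeR adjusted p = 0.325). At 0 h its log2 fold change was -0.005, and for Soltu.DM.04G023730.1 and Soltu.DM.03G028450.1, also among the 8, it was -0.01 each. The other 5 had values between -1.36 and -0.27 at 0 h, and for 1 of the 8 the arms did not overlap there.

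Soltu.DM.04G011570.1, the gene of the 8 with the largest fitted difference, had 0.575 and 4.75 CPM in beetle libraries and 11.9 and 15.9 CPM in control libraries at 24 h. At 48 h it had 1.03 and 9.97 CPM in beetle libraries, against 19.8 and 14.9 CPM in control libraries. The pooled log2 fold change was -2.04 with an SE of 0.79 (edgeR adjusted p = 0.373), and it lay between -3.27 and -1.61 with any 1 library left out, lowest without beetle 48 h replicate 2. At 0 h, however, the arm to receive beetles already had 2.51 and 5.41 CPM, against 3.18 and 16.8 CPM in the control arm, a log2 fold change of -1.36. Next among the 8 genes with at least 5 CPM was Soltu.DM.08G013800.1, with a log2 fold change of -0.72 with an SE of 0.30 (edgeR adjusted p = 0.393).

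The genes that DESeq2 called over both hours, named because there are only 2, were Soltu.DM.04G023730.1 and Soltu.DM.08G023860.1. The first had 0.415 and 0.828 CPM at 24 h and 1.30 and 0.901 CPM at 48 h in beetle libraries, against 2.15 and 3.93 CPM and 2.41 and 3.05 CPM in control libraries. Its beetle libraries lay below every control library, and at 0 h the arms overlapped, with 1.33 and 4.11 CPM in the arm to receive beetles and 2.77 and 2.43 CPM in the control arm. Its log2 fold change was -1.83, with an adjusted p of 0.00472 in DESeq2 and of 0.211 in edgeR's quasi-likelihood test. Soltu.DM.08G023860.1 had 0.0639, 0.118, 0.147 and 1.45 CPM in the 4 beetle libraries at 24 and 48 h, against 1.36, 5.06, 0.241 and 6.21 CPM in the control libraries. These overlap. Its log2 fold change was -3.60 in DESeq2 (adjusted p = 0.0215) and -3.57 with an SE of 1.23 in edgeR (adjusted p = 0.331).

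On the positive side, the set of 9 genes had pooled log2 fold changes of 1.63 to 2.28, with SEs of 0.84 to 1.02 and edgeR adjusted p of 0.398 to 0.542. At 0 h the same contrast gave 0.88 to 2.62 for them, and replicate 1 of the beetle arm was the high library there. Of the 9, 4 met the rule only with beetle 24 h replicate 1 included. The only gene of the 83 with both beetle libraries above both control libraries at 24 h was Soltu.DM.10G017460.1, at 8.02 and 8.70 CPM in beetle libraries and 4.52 and 1.37 CPM in control libraries. It was 1.5 higher on the log2 scale (SE 0.80, edgeR adjusted p = 0.923), with 0.93 without control 24 h replicate 2 and 2.42 without control 24 h replicate 1. At 0 h the arm to receive beetles was also the higher one, with 18.1 and 19.3 CPM, against 12.6 and 10.4 CPM in the control arm. At 24 h the second gene by size on the lower side was Soltu.DM.10G020780.1, at 5.59 and 2.29 CPM in beetle libraries and 8.26 and 17.3 CPM in control libraries, with a log2 fold change of -1.77, an SE of 1.05 and an edgeR adjusted p of 0.939. At 0 h its arms overlapped, with 11.9 and 4.73 CPM in the arm to receive beetles and 3.3 and 13.4 CPM in the control arm.

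At 48 h the genes of at least 5 CPM that were higher in both beetle libraries were led by Soltu.DM.04G037310.1, at 8.76 and 10.6 CPM in beetle libraries and 5.5 and 6.83 CPM in control libraries. The difference was 0.68 on the log2 scale, with an SE of 1.5 and an edgeR adjusted p of 0.980. Soltu.DM.10G006240.1 had 47.9 and 42.0 CPM in beetle libraries and 35.9 and 41.4 CPM in control libraries at 48 h, a difference of 0.24 (SE 0.37, edgeR adjusted p = 0.967). On the lower side at 48 h, after Soltu.DM.04G011570.1, stood Soltu.DM.09G017210.1, at 4.37 and 4.21 CPM in beetle libraries and 8.77 and 6.14 CPM in control libraries, a difference of -0.78 (SE 0.35, edgeR adjusted p = 0.796).

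Before the beetles, Soltu.DM.02G004710.1 had 25 and 24.4 CPM in the arm to receive them, against 18.1 and 20.0 CPM in the control arm, a log2 difference of 0.34. Soltu.DM.12G011220.1, with 5.02 and 13.4 CPM, against 15.6 and 16.4 CPM in the control arm, and Soltu.DM.12G014430.1, with 6.75 and 9.28 CPM, against 9.94 and 12.7 CPM, were lower in the arm to receive beetles. The libraries of the arms thus did not overlap at these genes with no beetle present.

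The beetle effects at 24 and 48 h were set against each other in the same fit, and 0 of the 83 genes and 0 of all genes were called. At an unadjusted p under 0.05, 0 of the 83 and 277 of all genes passed.

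Between harvests, too, no gene of the 83 was called, nor any of the 23558 genes (0% in each comparison). In the control arm, 4 of the 83 had an unadjusted p under 0.05 for 24 h against 0 h (background 6.97%) and 3 for 48 h against 0 h (background 6.49%). In the beetle arm 3 had one at 24 h (background 2.92%) and 2 at 48 h (background 5.3%). DESeq2 called 73 and 118 genes at 24 and 48 h in the control arm and 27 and 77 in the beetle arm, none of them among the 83. These comparisons share libraries with the beetle comparisons and with each other.

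In the control arm, more of the 83 genes lay above the 0 h level than below it at 24 h. Their log2 fold change was positive for 56 genes at 24 h and 47 at 48 h, with medians of 0.18 and 0.10, against 0.00 for all genes at both hours. At 48 h this did not hold without control 48 h replicate 1, with 42 positive, 41 negative and a median of 0.01. With any 1 library left out, the 24 h median lay between 0.11 and 0.31. Control libraries lay above those of 0 h without overlap for 18 genes at 24 h (background 14.9%) and 18 at 48 h (background 20.7%), and below for 5 (background 21.2%) and 11 (background 17.4%). In the beetle arm the log2 fold change was positive for 38 genes at 24 h and 33 at 48 h, with medians of -0.04 and -0.15, against 0.04 and 0.03 for all genes. The median changed sign without beetle 0 h replicate 1 at 48 h, to 0.06, and without beetle 0 h replicate 2 at 24 h, to 0.02. Libraries of the beetle arm lay above those of 0 h for 3 and 5 genes (background 11.6% and 15.8%) and below for 13 and 19 (background 16.6% and 19.2%).

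Soltu.DM.02G011440.1, among the 10 highest, had 19.7 and 11.6 CPM at 24 h and 16.7 and 25.7 CPM at 48 h in the control arm, against 5.09 and 8.90 CPM at 0 h. The log2 fold change was 1.22 at 24 h (SE 0.63, edgeR adjusted p = 0.721) and 1.56 at 48 h (SE 0.64, edgeR adjusted p = 0.763). In the beetle arm its 48 h libraries had 10.9 and 24.2 CPM, against 6.63 and 8.61 CPM at 0 h. Soltu.DM.08G008810.3 had 15.4 and 22.8 CPM in the control arm at 48 h, against 5.97 and 5.43 CPM at 0 h, or 1.69 higher on the log2 scale (SE 0.62, edgeR adjusted p = 0.751). In the beetle arm at 48 h it had 4.07 and 19.3 CPM, against 3.61 and 5.05 CPM at 0 h, and the lower of the 48 h libraries lay among the 0 h values.

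Other genes named by the rule on size differed less from 0 h. In the control arm, Soltu.DM.09G017210.1 had 5.2 and 8.3 CPM at 24 h, against 4.25 and 5.03 CPM at 0 h, and Soltu.DM.08G006410.1 had 8.82 and 3.93 CPM at 24 h, against 10.7 and 9.18 CPM at 0 h. Soltu.DM.04G006910.2 had 6.05 and 6.07 CPM at 48 h in the control arm, against 9.47 and 7.98 CPM at 0 h. In the beetle arm, Soltu.DM.10G006240.1 had 41.6 and 39.0 CPM at 24 h, against 63.2 and 54.3 CPM at 0 h, and Soltu.DM.03G024930.1 had 3.39 and 3.83 CPM at 48 h, against 5.08 and 7.73 CPM at 0 h. Their edgeR adjusted p lay between 0.724 and 0.9995.

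Soltu.DM.10G017460.1 was lower at both later harvests in both arms. At 0, 24 and 48 h it had 18.1, 8.02 and 12.3 CPM in replicate 1 and 19.3, 8.70 and 2.41 CPM in replicate 2 of the beetle arm. In the control arm it had 12.6, 4.52 and 6.12 CPM in replicate 1 and 10.4, 1.37 and 1.43 CPM in replicate 2. Within each arm, both 0 h libraries lay above the 4 later ones. The log2 fold changes against 0 h were -1.11 and -1.36 at 24 and 48 h in the beetle arm and -1.95 and -1.67 in the control arm, with edgeR adjusted p between 0.709 and 0.9995. With any 1 library left out, the 48 h values ranged from -2.92 to -0.63 in the beetle arm and from -3.07 to -0.95 in the control arm, weakest in both without the replicate 2 library of 48 h. The 24 h values ranged from -1.12 to -1.09 in the beetle arm and from -2.86 to -1.37 in the control arm.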

How the data were processed

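Leaf mRNA was sequenced from stranded libraries as single reads of 50 nt, per the labels' protocols. Trimmomatic 0.35, STAR 2.7.3a, HTSeq and Picard are named in the submitters' processing notes. For genome build and annotation: not given in the sources used here. Values as deposited are raw read counts per gene for 32917 identifiers, and the 5 summary lines below them were left out of totals (reads outside genes: median 9.86%). CPM were computed from the rest.

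The 83 genes, sets and lists were chosen with earlier results of these data known. The 12 EE501F2_093 libraries were fitted in 6 groups with edgeR 4.0.16 (R 4.3.3; filterByExpr, TMM, quasi-likelihood test, 6 residual degrees of freedom), with Benjamini-Hochberg adjustment over 23558 genes and a threshold of 0.05. The SE is the one implied by the statistic. The fit was tested on simulated data. Alternatives were RLE scaling, no filter, DESeq2 1.42.0, other sets of libraries, a replicate block, each library left out, and other thresholds of the rule.

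Genes named were the 10 highest, the largest differences per comparison at 5 CPM or more without overlap (at most 2 per direction), the 3 highest pairs of neighbours, those nearest the thresholds and the highest in the left-out libraries. Genes named beyond these, neighbours of named genes included, were chosen after their values were seen.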

Additional observations from a re-analysis of the deposited data

Results flagged for a closer look

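The shallow library USDA8380-1 beetle 0 h replicate 3 entered neither the rule nor the main fit, only alternatives of them. It held the 83 genes at 65.3 CPM in total (138 counts), whereas the other USDA8380-1 libraries held 0.979 to 4.13 CPM. This is a signal in data outside the main measurement, above the level in the libraries it is labelled with. The 52 genes of the exchanged thresholds had 294 CPM in the shallow library, inside the 275 to 616 CPM of the 10 USDA8380-1 libraries of the rule. The source of the reads of the 83 genes was not tested.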

How the results depend on the processing

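The number of genes that met the rule was 166 with a mean of at least 1 CPM in EE501F2_093, 32 with at least 5 CPM, and 37 with at least 2 CPM in each EE501F2_093 library. It was 68 and 109 with at most 0.05 and 0.2 CPM in USDA8380-1, 57 with all 12 USDA8380-1 libraries, and 80 to 88 without any 1 of the other 22. None of the 83 was called in the 8 beetle and time comparisons under any alternative except DESeq2, which called 2 over both hours. The contrast of the beetle effects at 24 and 48 h was fitted once, with no alternative. Of all genes, DESeq2 called 44, 111 and 5 for beetle against control at 24, 48 and 0 h, 512 over both hours, 73 and 118 in the control arm at 24 and 48 h against 0 h, and 27 and 77 in the beetle arm. With edgeR's quasi-likelihood test the 1 gene called at 48 h became 0 with all 24 libraries, with 22, with the compared groups alone and with the replicate block. The 1 called over both hours became 0 with all 24, with the compared groups alone and with the block, and 10 without the filter. In the control arm, 1 and 2 genes were called at 24 and 48 h without the filter, and 1 at 48 h with 22 libraries. Leaving out each library gave 0 to 3 genes at 48 h and 0 to 5 over both hours, each highest without EE501F2_093 beetle 48 h replicate 2, and 0 to 1 at either hour in the control arm.

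Same-numbered libraries deviated together in the control arm (r 0.17 to 0.37 over the 3 pairs of harvests) but not throughout (15 pairs of groups, r -0.46 to 0.41, 8 above 0.1). The labels tie the numbers to no plant or cage, so they were not taken to pair the libraries. The replicate block called 0 genes in each of the 8 comparisons it was run on. The pooled median log2 fold change of the 83 stayed between -0.27 and -0.14 under every alternative, with 24 to 31 positive. At 0 h the median was 0.16 without control 0 h replicate 2, and in the beetle arm at 48 h it was 0.06 without beetle 0 h replicate 1. The median pairwise r of the set of 9 was 0.921 to 0.962 and that of the set of 5 0.943 to 0.962 with each library left out, an alternative chosen after seeing the data. With 2 pools per group, no comparison separates beetles from cages.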
